A study of Mus musculus with 4 samples.

Results

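The Hsd3b genes of the mouse encode 3β-hydroxysteroid dehydrogenase isomerases and close relatives of them, and 5 of these genes, Hsd3b1, Hsd3b2, Hsd3b3, Hsd3b5 and Hsd3b6, are described here across 4 arrays of pooled liver RNA. All non-control probes that carry one of these 5 gene names were taken, which gave 8 probes among the 56495 with a value on every array, or 5 of 37021 gene names. Hsd3b2 had 3 probes, Hsd3b1 had 2, and Hsd3b3, Hsd3b5 and Hsd3b6 had 1 each. The family was chosen for description with its values on these same arrays known, so its ratios between arrays are descriptions and none of them was tested.

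The study treated C57BL/6 wild-type mice, 6 weeks of age in the labels, with aristolochic acid I (AAI), a nephrotoxic compound of Aristolochia plants that the liver metabolizes. Females were given 5 mg/kg/day and males 2 mg/kg/day in corn oil, injected i.p. on 5 days of each of 3 weeks, and the control mice of each sex received corn oil alone. Equal amounts of liver RNA from 5 mice of a group were pooled and hybridized to 1 array, so the variation among mice was averaged out before the measurement and no replicate error exists. Sex and dose cannot be told apart in the comparison of the AAI-treated pools.

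The isomerases convert hydroxysteroids such as pregnenolone and dehydroepiandrosterone into the ketosteroids progesterone and androstenedione, a step that precedes all active steroid hormones. Hsd3b1 is the form of the mouse adrenal cortex and gonads, Hsd3b2 and Hsd3b3 are forms of liver and kidney, and Hsd3b6 is known from Leydig cells, the adrenal zona glomerulosa and the placenta. Hsd3b5 is best known from male liver, where it acts as a ketosteroid reductase, and belongs to the genes that the pulsatile growth hormone of males keeps high. The genes lie side by side and arose by duplication, so that their sequences are close to each other.

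The probes of 60 bases are shown first because a signal belongs to a gene only as far as its probe does. They lie on the minus strand of chromosome 3 (build mm9) within 234.5 kb. The most 5′ probe of each of 4 genes is given whole, from 5′ to 3′, with the first base of the probe in its transcript according to the array annotation.
Hsd3b1, from base 891, chr3:98657021-98657080: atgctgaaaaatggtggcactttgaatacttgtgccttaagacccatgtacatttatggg
Hsd3b2, from base 1067, chr3:98515703-98515762: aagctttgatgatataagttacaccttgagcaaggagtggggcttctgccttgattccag
Hsd3b3, from base 545, chr3:98546284-98546343: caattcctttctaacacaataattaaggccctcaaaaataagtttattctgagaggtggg
Hsd3b6, from base 733, chr3:98610436-98610495: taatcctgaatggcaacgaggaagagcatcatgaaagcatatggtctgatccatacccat
The longest run of bases that any of these 4 probes shared with a probe of another Hsd3b gene was 7. Probes were compared with probes and not with the transcripts of the related genes, so the specificity of a probe was not tested. The Hsd3b5 probe (from base 1530, chr3:98422576-98422635) is the exception in the family, since it shared a run of 23 bases, set in capitals below, with a probe of Hsd3b4, a neighboring gene that is not a member. The stretches shown are bases 31 to 60 of the Hsd3b5 probe and bases 24 to 53 of the Hsd3b4 probe.
Hsd3b5: ttgATACCTTTATGAAGCTCAAAGAAcaat
Hsd3b4: cccATACCTTTATGAAGCTCAAAGAAaaga
The further Hsd3b1 probe lies nearer the 3′ end (from base 1582, chr3:98656330-98656389), opens with tagacacagagaccaacttggtatctttct and shared at most 7 bases with a probe of another Hsd3b gene. The other Hsd3b2 probes start at base 1716 (chr3:98515054-98515113) and at base 3088 of a longer transcript (chr3:98513725-98513784).

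Of all probes, 74.7% to 81.5% were well above background on an array, and the hepatocyte marker Alb had the same log2 signal of 19.12 on 3 arrays and 19.15 in AAI-treated males. All 5 hepatocyte markers were well above background on every array and none differed 2-fold in a comparison, with summed normalized signals between 959300 and 1084000. The labelled tissue was therefore present on all arrays, but markers of other tissues were there too. Quantile normalization gives every array the same set of values, so a gene near the top of each, such as Alb, can hardly differ. The Alb signals and the hepatocyte sums, in which Alb is the largest part, thus do not show equal liver content. The 6 skeletal muscle markers had a summed signal of 329.7 in control and 27120 in AAI-treated females, and of 3191 in control and 227300 in AAI-treated males. The signals below are log2 values after quantile normalization, and folds are these differences taken back to the linear scale. A probe counts as called where the fold is 2 or more and the scanner marked it well above background on either array of the pair, and a bound stands for the ratio where it was marked on one of them alone. Technical error was available in a pair of forms. Across genes with several probes, the SD between the probes' ratios had a median of 0.25 in females, 0.24 in males and 0.23 in both comparisons of the sexes, and the scanner software's own error estimate for a member's log2 ratio was 0.20 to 0.23, except for Hsd3b5 (0.39 to 0.50).

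Between AAI- and corn oil-treated males, 5 of the 8 probes were called, 2 lower and 3 higher, against 4.37% of all 44873 probes called lower and 3.51% called higher. In females 0 of the 8 probes were called, against 3.27% of 46722 probes called lower and 1.39% called higher. Corn oil-treated males exceeded corn oil-treated females at 2 probes and were lower at 0, against 3.62% and 1.94% of 45462 probes. AAI-treated males also exceeded AAI-treated females at 2 probes and were lower at 0, against 3.41% and 1.17% of 46396 probes. The median log2 ratio of the 8 probes was 0.32 in females and -0.31 in males for AAI, and 0.79 and 0.40 for males against females on corn oil and on AAI, while the medians of all probes lay between -0.03 and 0.02. Since the family was chosen on these values, nothing is read from its counts. The probes nearest the 2-fold limit were Hsd3b6 in males just inside it, with a log2 ratio of 1.03, and Hsd3b2 in females just outside it, with -0.96.

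**Figure D1:**
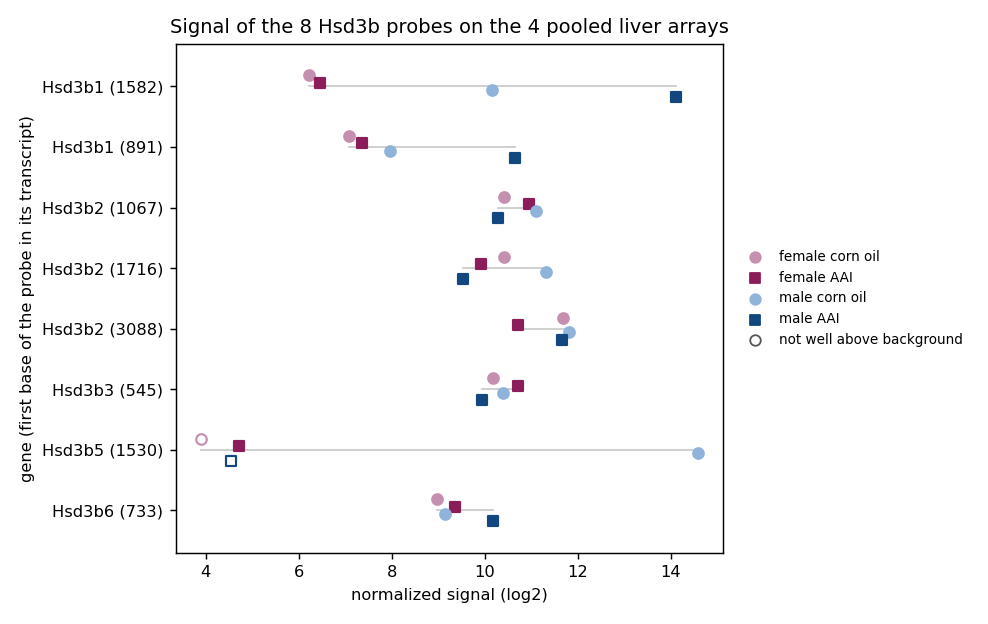
Normalized log2 signal (horizontal axis) of the 8 Hsd3b probes, with the first base of each probe in its transcript, on the 4 pooled arrays. Each point is 1 array and hollow points are not well above background; Hsd3b5 is at 14.60 in corn oil-treated males and below 5 on the other arrays, and the Hsd3b1 probe at base 1582 is at 14.11 in AAI-treated males.

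Hsd3b5, the male liver reductase, had the widest range of the family. Its log2 signal was 3.89 in control and 4.71 in AAI-treated females, and 14.60 and 4.55 in control and AAI-treated males. On the linear scale of the scanner these were intensities of 14.0, 30.7, 24300 and 21.6. It was thus high on 1 array and close to background on the others, where the scanner marked it as well above background in AAI-treated females alone. AAI-treated males had at least 955-fold less signal than corn oil-treated males, a log2 bound of -9.90. This was the lowest of the 44795 ratios ranked in males, out of 44873 compared. Ranks leave out spots whose processed intensity stood at the background value although their background-subtracted intensity was much higher. Corn oil-treated males had at least 1220-fold more signal than corn oil-treated females, a log2 bound of 10.26 and the highest of 45436 ratios. Both ratios rest on the same array of corn oil-treated males, on which the spot was neither saturated nor marked as an outlier. With normexp background correction the bounds were smaller, -7.83 and 7.98.

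In females the AAI ratio of Hsd3b5 was a bound of at least 0.36, which is smaller than its scanner error of 0.50, and no fold could be given between the sexes under AAI since the bound was 0.00. The Hsd3b4 probe that shares 23 bases with it read 4.08 in AAI-treated females and 4.82 in corn oil-treated males, and was at or under the background mark with 2.93 in control females and 3.92 in AAI-treated males. Hsd3b4 therefore did not show the large signal of Hsd3b5 in corn oil-treated males, but both probes were above background in AAI-treated females. Whether the shared bases contribute to the weak Hsd3b5 signal there was not tested.

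**Figure D2:**
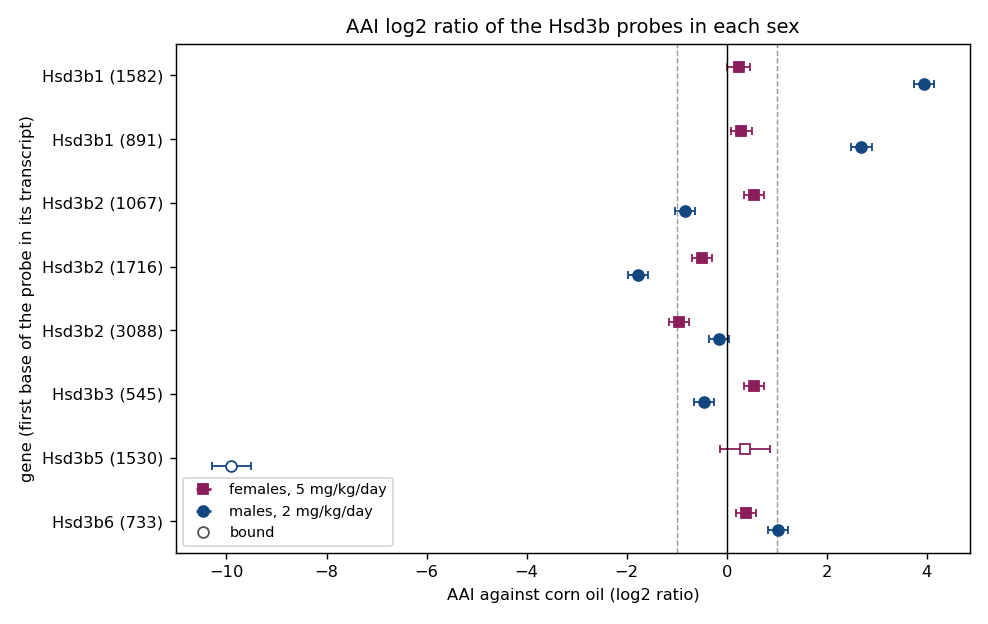
Log2 ratio of AAI- to corn oil-treated pools (horizontal axis) for each Hsd3b probe in females given 5 mg/kg/day and males given 2 mg/kg/day. Bars are the scanner error estimate, hollow points are bounds and dashed lines mark 2-fold; male points run from a bound of -9.90 (Hsd3b5) to 3.95 (Hsd3b1), whereas female points stay between -0.96 and 0.55.

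Hsd3b1, the adrenal and gonadal isomerase, ran the other way in males. At the probe of base 1582 its log2 signal was 6.23 in control and 6.46 in AAI-treated females, and 10.16 in control and 14.11 in AAI-treated males. All arrays were well above background for this probe, and both male values lay above both female values. The AAI ratio was 3.95 in males, a 15.4-fold higher signal and the 141st highest of 44795 ratios, and 0.24 in females, about the size of the scanner error of 0.23. Between the sexes the log2 ratio was 3.94 on corn oil and 7.65, or 201-fold, under AAI.

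The probe of base 891 gave the same direction with smaller differences. It read 7.08 in control and 7.37 in AAI-treated females, and 7.97 in control and 10.66 in AAI-treated males. Its ratios were 2.69 (6.45-fold) for AAI in males, 0.29 for AAI in females, 0.89 for the sexes on corn oil and 3.29 for the sexes under AAI. The gap between the Hsd3b1 probes was 1.26 for AAI in males and 3.05 for the sexes on corn oil. The SDs between them, 0.89 and 2.15, lay well beyond the medians over genes of 0.24 and 0.23. The higher signal in AAI-treated males was thus seen with both probes but its size was not settled. The sex difference on corn oil passed 2-fold with the probe nearer the 3′ end and did not with the other, and with normexp background correction the larger of these ratios was 2.74.

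Signals of adrenal genes were high on the same array. Of the 10 adrenal cortex markers, 6 were called higher and 1 lower in AAI- than in corn oil-treated males, with a median log2 ratio of 2.48 against 0.00 over 30539 genes by their brightest probe, of which 3.51% were called higher and 4.59% lower. In females 0 of the 9 tested were called, against 1.37% of 31682 genes higher and 3.09% lower. The summed signal of the 10 markers was 40540 in control and 38910 in AAI-treated females, and 44390 in control and 84260 in AAI-treated males. In females and control males most of it came from Fdx1 (log2 of 14.51 to 15.05 over the arrays) and Mrap (12.84 to 13.44). These 2 markers, named after their values were seen, were not called in any comparison. By counts and median, the adrenal cortex markers thus stood apart in the AAI-treated male pool.

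Star, the cholesterol carrier that feeds the first step of steroid synthesis, read 5.74 and 5.31 in corn oil- and AAI-treated females and 8.53 and 13.01 in corn oil- and AAI-treated males. The side-chain cleavage enzyme Cyp11a1 read 5.54 and 5.79 in females and 6.91 and 10.39 in males. Cyp21a1, the steroid 21-hydroxylase, read 8.96 and 9.14 in females and 10.01 and 13.80 in males. In each of these the AAI-treated male array was the highest, and the log2 ratio in males was 4.49, 3.47 and 3.78, respectively. Cyp11b1, the last enzyme of corticosterone synthesis, had a ratio of 3.69 in males and 0.00 in females, and the adrenal reductase Akr1b7 of 4.85 and 0.13. Nr5a1, the steroidogenic transcription factor, was the other marker called higher, with 1.48. Unlike Star, it read 11.13 and 11.68 in corn oil- and AAI-treated females and 10.43 and 11.91 in corn oil- and AAI-treated males. Its log2 ratio between the sexes under AAI was thus only 0.23. The ACTH receptor Mc2r, named together with Nr5a1 after its value was seen, was the marker called lower, with 10.21 in corn oil- and 8.13 in AAI-treated males. Cyp11b2, the aldosterone synthase, also named afterwards, had a ratio of -0.12 in males and was not well above background in either female pool.

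Corn oil-treated males were also above corn oil-treated females at 5 of the 10 adrenal cortex markers and below them at 0, against 3.83% of 30891 genes called higher and 1.86% called lower. Under AAI males were above females at 7 of 10 and below at 0, against 3.25% and 1.17% of 31494 genes. Of the 6 adrenal medulla markers, 4 were called higher in AAI-treated males and 0 lower, against 3.51% and 4.59% of all genes, among them Chgb, Chga and Pnmt. Chgb, a granule protein of chromaffin cells, read 4.90 in corn oil- and 12.70 in AAI-treated males. The medulla list summed to 2825 and 2793 in corn oil- and AAI-treated females and to 3724 and 17900 in corn oil- and AAI-treated males. Of the 5 fat markers, 3 (Ucp1, Cidea and Adipoq) were called higher in AAI-treated males, against the same 3.51% of all genes, with sums of 1497 in control and 16050 in AAI-treated males. In females the sums were 1234 and 1267, most of which was the signal of Lep (log2 of 9.88 and 9.96), and 1 of the 4 tested, Adipoq, was called higher, by at least 2.14-fold, against 1.37% of all genes. Ucp1, the uncoupling protein of brown fat, read 4.98 in corn oil- and 12.89 in AAI-treated males and was not well above background in either female pool.

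Of the kidney markers, 0 of the 7 tested were called higher in males and 2 lower (Lrp2, -1.41, and Slc12a3, -1.09), with sums of 2323 and 2336 in control and AAI-treated males. In the Leydig cell and gonad list 0 of 5 were called higher and 1 lower (Hsd17b3). Of all genes, 3.51% were called higher and 4.59% lower in males. A count of 0 higher in lists of this size is near the background and is not a result about them. The counts called lower rest on 1 or 2 markers of a list and are not read further. The part of other tissues in the signals of Hsd3b1, and of Hsd3b6 below, was not tested. In pooled tissue RNA, more or fewer cells of a type and more or less RNA per cell cannot be told apart.

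**Figure D3:**
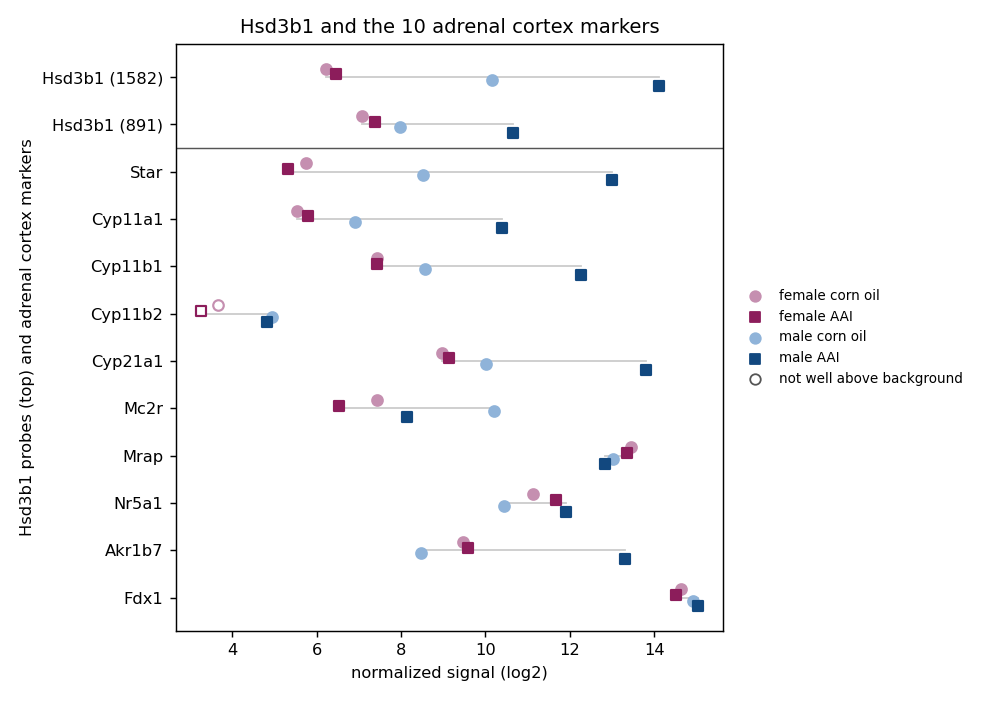
Normalized log2 signal (horizontal axis) of both Hsd3b1 probes and of the 10 adrenal cortex markers on the 4 pooled arrays, with hollow points for values not well above background. AAI-treated males are highest for Hsd3b1 (14.11 and 10.66), Star (13.01), Cyp11a1 (10.39), Cyp11b1 (12.26), Cyp21a1 (13.80) and Akr1b7 (13.32), whereas Mc2r is highest in corn oil-treated males (10.21).

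Hsd3b6, the Leydig and glomerulosa form, had a small difference in the same direction as Hsd3b1. Its log2 signal was 8.97 in corn oil- and 9.36 in AAI-treated females and 9.15 in corn oil- and 10.18 in AAI-treated males. The corn oil-treated pools of both sexes lay within the scanner error of each other (0.18 against 0.20), and AAI-treated males were highest. The AAI ratio was 1.03 in males, a 2.04-fold higher signal just past the limit, and 0.39 in females. It was no longer called with the background corrected by the normexp model (0.87) or without the correction of trends across the array (0.96).

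Hsd3b2 and Hsd3b3, the liver and kidney forms, had signals on all 4 arrays and smaller ratios. Hsd3b3 read 10.17 in corn oil- and 10.72 in AAI-treated females and 10.39 in corn oil- and 9.94 in AAI-treated males. Its AAI ratio was 0.55 in females and -0.46 in males, each beyond the scanner error of 0.20 and neither called. The signs were opposite, but the difference between the sexes was not tested.

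The Hsd3b2 probes disagreed among themselves. At base 1716 the signal was 10.42 in corn oil- and 9.92 in AAI-treated females and 11.32 in corn oil- and 9.54 in AAI-treated males. This is the probe called in males, with a ratio of -1.78, a 3.42-fold lower signal. At base 1067 the values were 10.42 and 10.95 in females and 11.11 and 10.28 in males. Here the ratio in males had the same sign (-0.83) but did not reach 2-fold, and in females it was 0.54. At base 3088 of the longer transcript the values were 11.68 and 10.72 in females and 11.82 and 11.67 in males, with ratios of -0.96 and -0.15. In males all 3 ratios were thus below 0, with an SD of 0.82 between them, although the smallest was 0.03 with normexp background correction or without trend correction, whereas in females they ran from -0.96 to 0.54. The SDs exceed the median over all genes, so that no single ratio stands for Hsd3b2 in either sex.

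Other genes of the family were not called in any comparison. Hsd3b4, a ketosteroid reductase known from kidney, read 7.58 and 8.04 in corn oil- and AAI-treated females and 7.93 and 7.64 in corn oil- and AAI-treated males at its brightest probe, and another Hsd3b4 probe was not well above background on any array. Hsd3b7, the liver enzyme that acts on bile acid precursors and not on steroid hormones, read 15.61 and 15.38 in females and 15.47 and 14.79 in males. Its AAI ratio of -0.69 in males was below 2-fold. Nsdhl, a distant relative that serves cholesterol synthesis, was called higher in both sexes, with ratios of 1.59 in females and 1.18 in males.

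The AAI ratios in males ran from -9.90 to 3.95 within the 234.5 kb of the cluster. Going from the Hsd3b5 probe, the Hsd3b2 probes followed at 91.1 to 93.1 kb with -1.78 to -0.15, Hsd3b3 at 123.7 kb with -0.46, Hsd3b6 at 187.9 kb with 1.03 and Hsd3b1 at 233.8 and 234.4 kb with 3.95 and 2.69. Among the members the order along the chromosome was nearly the order of the ratios, but Hsd3b4, on the other side of Hsd3b5 at -108.7 and -119.6 kb, does not follow it, with a ratio of -0.29 and a bound of -0.12. Of 24 probes of other genes within 500 kb of the members, 15 could be compared in males, of which 2 were called higher and 1 lower, against 3.51% and 4.37% of all probes. Next to Hsd3b1, at 256.1 kb, Hao2, a peroxisomal hydroxyacid oxidase that is female-biased in liver, read 8.27 and 9.12 in corn oil- and AAI-treated females and 6.31 and 9.19 in corn oil- and AAI-treated males. Its AAI ratio of 2.88 in males thus had the sign of Hsd3b1, whereas on corn oil males were below females by -1.96, opposite to Hsd3b1. The other probe called higher was that of Phgdh, an enzyme of serine synthesis (1.05). In females 1 of 16 neighboring probes, of the RIKEN transcript 5730437C11Rik, was called higher (a bound of 3.60) and 0 lower, against 1.39% and 3.27% of all probes.

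**Figure D4:**
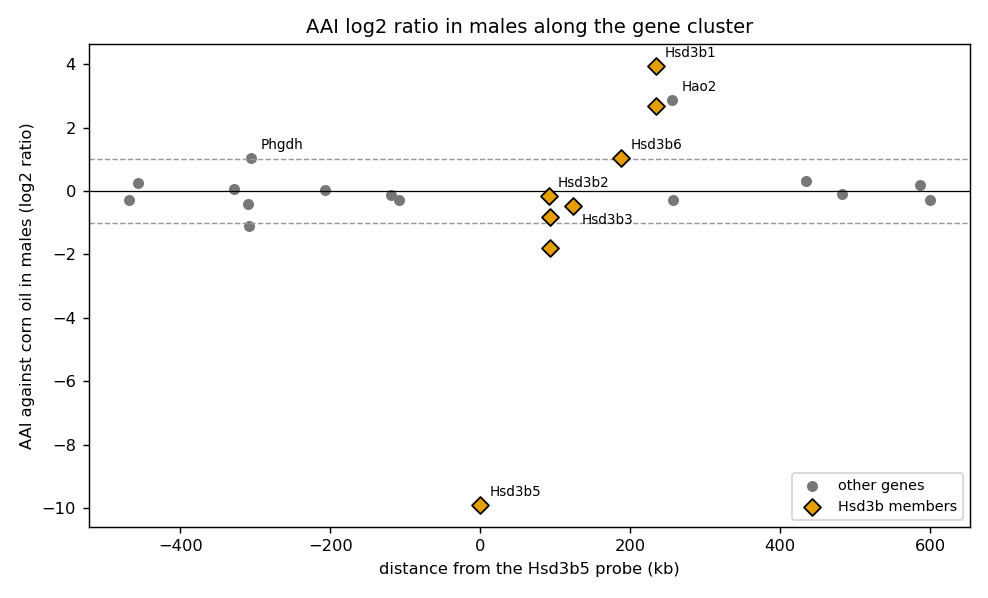
Log2 ratio of AAI- to corn oil-treated males (vertical axis) against the distance of each probe from the Hsd3b5 probe in kb (horizontal axis), for the Hsd3b probes (diamonds) and other genes (circles). Dashed lines mark 2-fold; the Hsd3b ratios run from a bound of -9.90 at 0 kb to 3.95 at 233.8 kb, and Hao2 is at 2.88.

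The genes whose levels across the 4 arrays were nearest to Hsd3b5 were Elovl3, a fatty acid elongase, the fatty acid hydroxylases Cyp4a12a and Cyp4a12b, Cml5, and Slco1a1, an organic anion transporter. Nearness was the Euclidean distance of mean-centered log2 signals, and the distances were 3.76, 4.22, 4.38, 4.41 and 4.87. Only the 28184 genes whose brightest probe was well above background on all 4 arrays were compared. Hsd3b5 itself would not pass this filter, so genes near background in some pools, as it is, could not be found. Each gene named was highest in corn oil-treated males and had a narrower range than Hsd3b5, which the filter favors. For Elovl3 the log2 signal was 7.69 and 6.89 in corn oil- and AAI-treated females and 13.58 and 7.87 in corn oil- and AAI-treated males. For Cyp4a12a it was 7.07 and 7.89 in females and 13.42 and 8.88 in males.

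As a group, 10 of the 18 male-biased liver genes were called lower and 0 higher in AAI- than in corn oil-treated males, against 4.59% and 3.51% of all genes, with a median ratio of -1.59. In females 5 were called lower (Mup20, Mup1, Mup21, Slco1a1 and C6) and 1 higher (Gstp1), against 3.09% and 1.37% of all genes, with a median of -0.07 against 0.04 over all genes. Corn oil-treated males exceeded females at 11 of the 18, against 3.83% of all genes. Not all of the list behaved like Hsd3b5. The major urinary proteins Mup20 and Mup1, named after their values were seen, had ratios of -3.89 and -3.63 in females and of -0.49 and -0.01 in males, so they were low on the array of AAI-treated females and not on that of AAI-treated males. Their log2 signals in males, 18.10 to 18.90, lay near the top of the scale, where quantile normalization leaves little room for differences. On corn oil neither was called between the sexes (0.43 and -0.10). Of the 20 female-biased liver genes, 17 could be compared in males, of which 12 were called higher and 1 lower (Cyp3a16), against 3.51% and 4.59% of all genes, with a median of 2.29. Cyp2b13, a female-biased cytochrome P450, read 6.19 in corn oil- and 10.06 in AAI-treated males against 13.44 and 14.20 in females. Cux2, a female-biased repressor in the growth hormone signaling list, read 5.53 and 8.78 in males and 8.40 and 8.01 in females. It was called in males with 1 of the 17 genes of that list called, a share near that over all genes (3.51% higher and 4.59% lower).

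**Figure D5:**
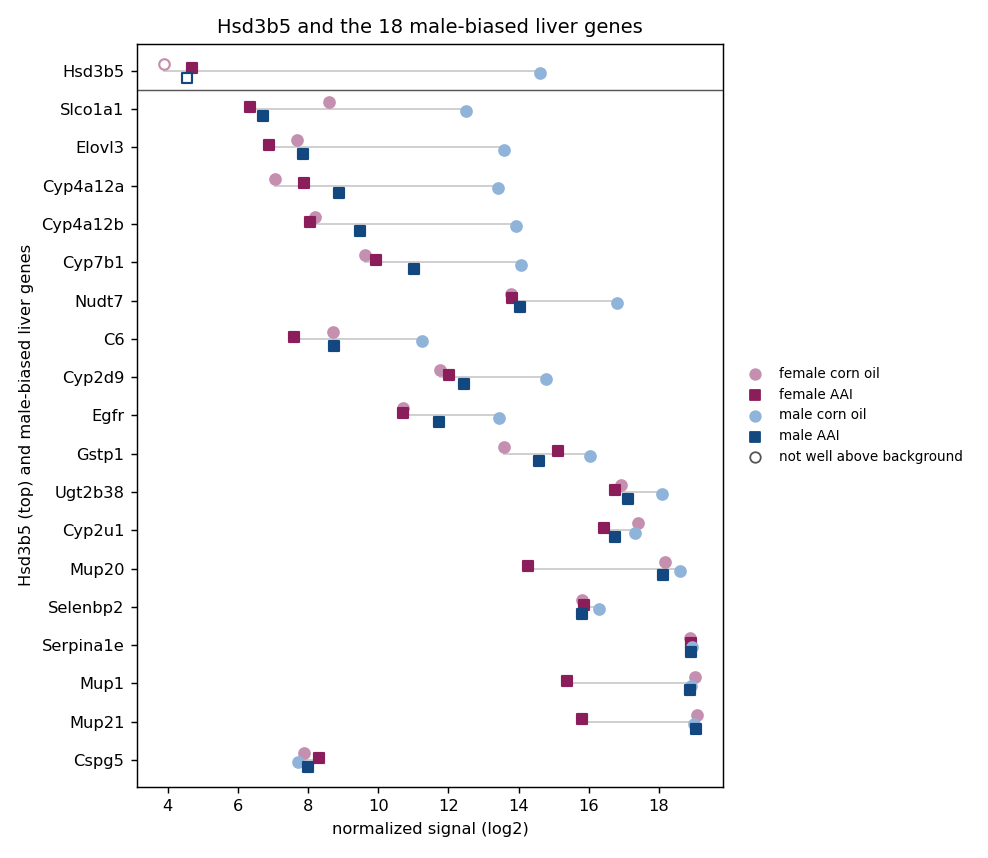
Normalized log2 signal (horizontal axis) of Hsd3b5 and of the 18 male-biased liver genes on the 4 pooled arrays, with hollow points for values not well above background. Genes are ordered by their AAI ratio in males, from Slco1a1 (-5.78) at the top of the list to Cspg5 (0.29); Hsd3b5 has the widest range, from 3.89 to 14.60.

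Among the same 28184 genes, the nearest to the Hsd3b1 probe at base 1582 was Star, at a distance of 0.82. It was well ahead of an unnamed noncoding transcript (2.27), Cfd (2.34), Cidea (2.49) and Retn (2.72). Genes such as Ucp1 and Chgb, not well above background in every pool, were not compared. Cfd, Cidea and Retn are genes of fat cells, and Cidea is also on the list of fat markers. In females the AAI ratio was 3.51 for Cfd, 1.13 for Retn and 0.96 for Cidea, whereas it was 0.24 for the Hsd3b1 probe. Star and the Hsd3b1 probe at base 1582 were both highest in AAI-treated males and next highest in corn oil-treated males.

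Among other steroid enzymes, differences in signal were unevenly spread. Of the 13 genes of steroid hormone synthesis, of which 6 are also adrenal cortex markers, 5 were called higher and 1 lower in males, against 3.51% and 4.59% of all genes, with a median ratio of 0.50. Besides Star and the 3 Cyp genes named above, the fifth was the electron donor Fdxr (1.23), and the lower one was Hsd17b3, the testicular enzyme that makes testosterone (-2.38); these last were named after their values were seen. Of 25 ketosteroid reductases and steroid oxidoreductases, 2 were called lower and 0 higher in males, Srd5a1, a steroid reductase (12.68 and 10.98 in corn oil- and AAI-treated males), and Hsd17b6 (10.37 and 9.25). In females 0 of the 25 were called. These counts are near the shares over all genes (4.59% lower and 3.51% higher in males, 3.09% and 1.37% in females). Of the steroid hydroxylases and conjugating enzymes, 20 could be compared in males, with 8 called lower and 2 higher, against 4.59% and 3.51% of all genes, and a median of -0.89. Cyp7b1, the oxysterol hydroxylase, read 14.06 in corn oil- and 11.01 in AAI-treated males, and the female-biased Cyp2b9 8.87 and 14.15. Sult1e1, the estrogen sulfotransferase, was called higher in both sexes, with 1.05 in females and 3.13 in males.

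The sequence before the start sites was compared because Hsd3b3 and Hsd3b5 resemble each other there and differ in their signals. All 5 members have an entry in the RefSeq promoter table of build GRCm38.p6, from which the 250 bases upstream were taken, whose positions are not those of the mm9 probes. Hsd3b3 has 2 entries there, and the one with the higher coordinate was aligned and is printed. Aligned with free ends, Hsd3b3 and Hsd3b5 had 153 identical bases in 203 columns, or 75.4%. No other pair of members aligned over more than 73 columns. Capitals mark the run of 24 identical bases.
Hsd3b5, minus strand, chr3:98645535-98645784: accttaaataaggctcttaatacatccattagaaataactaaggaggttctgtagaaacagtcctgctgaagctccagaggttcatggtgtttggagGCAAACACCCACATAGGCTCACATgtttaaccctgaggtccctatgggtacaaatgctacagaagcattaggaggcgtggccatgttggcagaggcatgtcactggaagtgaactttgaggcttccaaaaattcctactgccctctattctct
Hsd3b3, minus strand, chr3:98763129-98763378: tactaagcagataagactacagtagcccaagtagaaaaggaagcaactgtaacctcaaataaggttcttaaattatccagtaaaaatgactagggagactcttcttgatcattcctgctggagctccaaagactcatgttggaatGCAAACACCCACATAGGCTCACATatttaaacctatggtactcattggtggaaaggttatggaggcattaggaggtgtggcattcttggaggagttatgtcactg
On corn oil, Hsd3b5 was at least 1220-fold higher in males than in females and Hsd3b3 1.17-fold higher, a log2 ratio of 0.22.

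The letters TTCNNNGAA, which STAT5 recognizes, form a pattern that reads the same on both strands. They were found in 1 of the 5 members, Hsd3b1, with 1 match beginning at base -122 from the start site. They occur in 7.02% of the 32851 promoters of the same length in the table. In the Hsd3b1 sequence they are set in capitals.
Hsd3b1, minus strand, chr3:98859795-98860044: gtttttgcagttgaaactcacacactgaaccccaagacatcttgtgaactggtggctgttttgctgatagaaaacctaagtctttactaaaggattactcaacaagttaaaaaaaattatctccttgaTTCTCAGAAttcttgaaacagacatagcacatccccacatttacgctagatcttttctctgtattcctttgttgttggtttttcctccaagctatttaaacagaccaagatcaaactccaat
The letters TCAAGGTCA of the steroidogenic factor SF-1 and the shorter AGGTCA that they contain were found in none of the 5 members on either strand, and in 0.39% and 14.02% of all promoters. A match is a description of the letters in this window and not a site.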

How the data were processed

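RNA from the livers of 5 mice per group was pooled and hybridized to 1 single-color Agilent SurePrint mouse array per group. The authors scanned the arrays with Feature Extraction 10.5.1.1 and deposited the linear intensity of each spot with its background, error estimate and quality marks, and a table of the series with intensity after their quantile normalization, used here as an alternative. Groups came from the sample labels. The members, gene lists and the rule for named genes were chosen with earlier results of these data known. The rule names all Hsd3b genes, genes within 500 kb of them, the 4 genes with the largest ratios of each list, Star, Cyp11a1, Cyp11b1, Cyp21a1, Alb, and the 5 genes nearest to Hsd3b5 and to Hsd3b1; genes outside it are said to be so. Some genes under the rule are not reported here.

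Log2 of the processed intensity was used without control spots and outlier spots (70 to 234 per array), spots of a probe were averaged, and the 4 arrays were quantile normalized. The processed intensity of AAI-treated females was not corrected for trends across the array, whereas that of the others was. No member spot was saturated or an outlier. Spots with a processed intensity within 1% of the background value, but a much higher background-subtracted intensity, numbered 0 to 92 per array. No member had such a spot. Probes with one were left out of ranks, gene list counts and the search for nearest genes, but kept in the shares of all probes and genes. A bound compares the bright value with the higher of the dim value and the lowest signal well above background on that array (log2 of 3.81 to 4.70). Alternatives were 75th percentile scaling, normexp background correction with an offset of 50 (limma 3.58.1, R 4.3.3), no trend correction, the authors' normalized intensity, no filter on dim probes, a limit of 3-fold, and genes in place of probes. Ratios and ranks were computed with Python 3.11.15, numpy 2.4.6 and pandas 2.3.3. The normalization, the ratios and the bounds, but not the ranks, were tested on simulated data. Promoters were aligned with a match of 1, a mismatch of -1 and a gap of -2. With 1 array per group no test was made, and precision is limited by that single array.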

Additional observations from a re-analysis of the deposited data

Results flagged for a closer look

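Hsd3b5 had AAI ratios of opposite sign in the sexes, a log2 bound of -9.90 in males given 2 mg/kg/day and of 0.36 in females given 5 mg/kg/day. The difference between the sexes was not tested, dose and sex cannot be told apart, and the value in females is smaller than its scanner error of 0.50.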

How the results depend on the processing

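Over 5 other ways of processing, 150 of 160 member ratios moved by less than the SD between probes of 1 gene, 10 moved by more and 0 called ratios reversed. With normexp background correction the bound of Hsd3b5 was -7.83 for AAI in males and 7.98 for males against females on corn oil, the Hsd3b1 probe at base 1582 gave 2.74 for the sexes on corn oil and 6.52 under AAI, and the other Hsd3b1 probe gave 2.36 for AAI in males, 0.57 for the sexes on corn oil and 2.74 under AAI. Without the filter on dim probes Hsd3b5 gave 0.81 for AAI in females and 10.71 for the sexes on corn oil, and with 75th percentile scaling -0.27 for the sexes under AAI. With 75th percentile scaling 1 Hsd3b probe was called lower in AAI-treated females in place of 0, Hsd3b2 at base 3088 with -1.04. With normexp correction, without trend correction or at 3-fold, 2 probes in place of 3 were called higher in AAI-treated males, as Hsd3b6 dropped out. In the first pair of these, 3 in place of 2 were called higher in males than in females on corn oil, with Hsd3b2 at base 1716 (1.03 and 1.07) added. The authors' table gave the same counts of called probes as the values used here, with log2 signals lower by 0.23 at the median. No paired analysis was possible because each group is 1 pooled array. Depth does not apply, and the dim values of Hsd3b5 limit its ratios to bounds.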
